A study of Mus musculus with 8 samples.

Results

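Fgf5, Otx2, Pou3f1, Lef1, Sox3, Foxd3, Fgf15, Pim2 and Sox4, 9 genes of the formative and primed epiblast, were followed in mouse embryonic stem cells that lacked the histone demethylases Jmjd1a (gene Kdm3a), Jmjd1b (gene Kdm3b) or both. Every probe set assigned to 1 of these gene symbols alone was taken if its values spanned at least 0.01 on the log2 scale over the 8 arrays. This gave 14 of the 20 probe sets that carry a member's symbol, out of 45101 on the array, and all 9 genes had at least 1. The other 6 probe sets, 1 of Fgf5, 1 of Sox3 and 4 of Sox4, were flat, meaning that they held no measured difference. The groups, each of 2 arrays from biological replicates, were double-KO (Jmjd1adelta/delta; Jmjd1bdelta/delta), Jmjd1a-KO (Jmjd1adelta/delta; Jmjd1b+/+), Jmjd1b-KO (Jmjd1a+/+; Jmjd1bdelta/delta) and WT (Jmjd1a+/+; Jmjd1b+/+). The double-KO cells came from 1 Jmjd1a-deficient line, in which Jmjd1b was made conditional in 2 recombinant lines and the tamoxifen-regulated recombinase MerCreMer removed Jmjd1b once OHT was added. An OHT dose of 800 nM stands in the protocol of every sample, and no group is labelled as an OHT control. All cells grew with leukemia-inhibiting factor and low serum. The labels describe the WT and Jmjd1b-KO cells as coming from mice, whereas the design text describes Jmjd1b-deficient lines derived with adenoviral Cre from a targeted line. The groups thus come from different lines, so a difference between groups and a difference between lines cannot be told apart. The sources used here do not say which replicate came from which clone, so p-values measure only the spread between these arrays.

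Embryonic stem cells kept with leukemia-inhibiting factor resemble the naive epiblast of the embryo before implantation. On leaving this state cells pass through a formative and then a primed state, in which FGF and Wnt signals, Otx2 and POU and SOX factors turn on a new set of enhancers ahead of the choice of germ layer. Fgf5 is the classic marker of this transition. Jmjd1a and Jmjd1b remove methyl groups from H3K9, a mark of silent chromatin.

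RefSeq promoter windows (GRCm38.p6), 250 bases before to 50 bases after the annotated gene start, matched 6 of the 9 genes. Pou3f1, Sox3 and Fgf15 had no entry in the table used. The windows of Fgf5, Otx2 and Pim2 are shown because these genes had the widest spans among the 6. Both strands were searched for 5 motifs. The core of TCF and LEF sites was written CTTTGA and that of SOX sites ACAAAG. The core of OTX sites was written GGATTA and the part of the octamer that POU factors bind TGCAAAT. The TATA box, TATAAA, was added after the sequences were seen. Capitals mark every match.
Fgf5: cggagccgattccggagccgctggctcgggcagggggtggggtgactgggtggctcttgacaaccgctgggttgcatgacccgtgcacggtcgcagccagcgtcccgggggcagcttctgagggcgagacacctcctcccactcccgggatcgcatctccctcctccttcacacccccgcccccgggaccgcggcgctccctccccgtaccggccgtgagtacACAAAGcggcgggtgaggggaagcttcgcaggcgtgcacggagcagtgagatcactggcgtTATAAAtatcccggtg
Otx2: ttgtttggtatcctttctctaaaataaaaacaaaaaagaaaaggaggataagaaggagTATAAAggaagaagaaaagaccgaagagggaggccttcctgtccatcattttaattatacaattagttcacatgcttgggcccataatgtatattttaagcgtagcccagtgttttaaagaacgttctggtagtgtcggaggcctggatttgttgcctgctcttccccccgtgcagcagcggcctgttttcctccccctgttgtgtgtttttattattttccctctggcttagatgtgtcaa
Pim2: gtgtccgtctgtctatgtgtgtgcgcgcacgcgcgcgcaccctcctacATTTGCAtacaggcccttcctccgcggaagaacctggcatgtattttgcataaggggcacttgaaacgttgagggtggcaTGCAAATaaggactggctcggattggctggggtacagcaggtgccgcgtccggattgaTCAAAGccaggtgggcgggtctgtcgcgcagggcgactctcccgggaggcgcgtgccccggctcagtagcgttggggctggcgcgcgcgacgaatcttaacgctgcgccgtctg

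The Fgf5 window lies at chr5:98253934-98254233 (plus strand), that of Otx2 at chr14:48667595-48667894 (minus strand, the most upstream of 4 annotated starts) and that of Pim2 at chrX:7878056-7878355 (plus strand). Fgf5 had 29 CpG dinucleotides in its window and Pim2 had 31, more than 87.1% and 89.4% of all 32851 windows in the table, while Otx2 had 6. The Pim2 window held TGCAAAT on either strand, beginning at positions -202 and -122 from the start, and a CTTTGA match at -64. The Fgf5 window held ACAAAG at -27 and, past the start, TATAAA at 35, and the Otx2 window held TATAAA at -192. No match overlapped that of another motif. Among all windows 4.02% held TGCAAAT and 16.0% held CTTTGA. The shares for ACAAAG and TATAAA were 18.7% and 13.6%, and GGATTA stood in 7.06%. The windows of Lef1, Foxd3 and Sox4, with 18, 25 and 12 CpG, held no match. A match is a description of the letters and not a binding site.

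The array medians lay between 6.80 and 6.81 and the lower quartiles between 6.341 and 6.346 on the log2 scale. The transcripts of the deleted genes followed the labels: Kdm3a averaged 4.68 in double-KO and 4.98 in Jmjd1a-KO, against 12.81 in Jmjd1b-KO and 12.78 in WT, and Kdm3b averaged 7.36 in double-KO and 7.08 in Jmjd1b-KO, against 9.88 in Jmjd1a-KO and 9.93 in WT. All 8 markers of embryonic stem cells were measured, with a mean level of 11.74 to 12.16 in double-KO, 11.91 to 12.10 in Jmjd1a-KO, 11.80 to 11.81 in Jmjd1b-KO and 11.84 to 11.85 in WT. The replicates of Jmjd1a-KO were the farthest apart. The median gap between them over the 14 probe sets was 0.58, against 0.22 in double-KO, 0.14 in Jmjd1b-KO and 0.09 in WT. Over all measured probe sets Jmjd1a-KO also had the widest median gap, 0.15, against 0.12, 0.06 and 0.08 in the same order. Replicate 1 was the lower in 11 of 14 in Jmjd1a-KO, but also in 11 in Jmjd1b-KO and 10 in WT, and in 4 in double-KO. Every change is the difference of 2 group means on the log2 scale, with its SE, from limma fitted to all 11502 measured probe sets of the table, and a gene rose or fell only at a Benjamini-Hochberg adjusted p under 0.05. RNA came from whole cultures, so fewer cells that express a gene and less RNA per cell cannot be told apart.

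Fgf5, a secreted growth factor of the epiblast, was the member with the widest span. Its measured probe set (1438883_at) read 9.22 and 8.47 in double-KO, 5.69 and 6.25 in Jmjd1a-KO, 6.19 and 6.20 in Jmjd1b-KO, and 6.14 and 6.20 in WT. The double-KO arrays lay far above all others, and the arrays of the 3 remaining groups overlapped. Fgf5 rose by 2.67 ± 0.28 in double-KO against WT (adjusted p = 0.00117, limma), by 2.87 ± 0.28 against Jmjd1a-KO (adjusted p = 0.00246) and by 2.64 ± 0.28 against Jmjd1b-KO (adjusted p = 0.00106). Neither single loss moved it past the threshold, with -0.20 ± 0.28 in Jmjd1a-KO (95% interval -0.88 to 0.48) and 0.03 ± 0.28 in Jmjd1b-KO (-0.66 to 0.71). Values outside double-KO lay below the lower quartile of the arrays, so the size of the rise is uncertain. The second Fgf5 probe set (1426186_a_at) was flat at 6.80 and gave no measurement of this rise.

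Fgf15, the mouse growth factor best known as a gut hormone that restrains bile acid synthesis and also made in the embryonic nervous system, took another course. It read 6.80 and 6.88 in double-KO, 6.86 and 7.30 in Jmjd1a-KO, 7.94 and 8.08 in Jmjd1b-KO, and 7.11 and 7.37 in WT. The Jmjd1b-KO arrays were above all others and the double-KO arrays below those of WT. It rose by 0.78 ± 0.16 in Jmjd1b-KO against WT (adjusted p = 0.0257, limma) and fell by 1.17 ± 0.16 in double-KO against Jmjd1b-KO (adjusted p = 0.00262). The difference of -0.40 ± 0.16 between double-KO and WT did not pass (adjusted p = 0.0963). The ligands thus ordered the genotypes differently: double-KO had the highest mean of Fgf5 and the lowest mean of Fgf15, the last with 1 Jmjd1a-KO array between its own.

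Otx2, a homeodomain factor that directs the move from the naive to the primed enhancer set, read 10.38 and 11.21 in double-KO, 9.40 and 8.79 in Jmjd1a-KO, 10.34 and 10.79 in Jmjd1b-KO, and 9.64 and 9.74 in WT. The cells without Jmjd1b, double-KO included, were the high groups and overlapped with each other, and Jmjd1a-KO was the low one. Otx2 rose by 1.11 ± 0.33 in double-KO against WT (adjusted p = 0.0369, limma) and by 1.70 ± 0.33 against Jmjd1a-KO (adjusted p = 0.0157). It fell by 1.47 ± 0.33 in Jmjd1a-KO against Jmjd1b-KO (adjusted p = 0.0239). Its differences from WT in Jmjd1b-KO, 0.88 ± 0.33 (adjusted p = 0.103), and in Jmjd1a-KO, -0.59 ± 0.33 (adjusted p = 0.246), did not pass. Without double-KO replicate 2 the difference between double-KO and WT was 0.69 (adjusted p = 0.138), and the call was also lost without WT replicate 1 or 2 (adjusted p = 0.139 and 0.115) and without Jmjd1b-KO replicate 1 or 2 (adjusted p = 0.0561 in either case).

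Pou3f1, the POU factor also called Oct6, and Pim2, a serine/threonine kinase that favours cell survival, shared one course. Pou3f1 (1460038_at) read 8.61 and 8.22 in double-KO, 7.54 and 8.87 in Jmjd1a-KO, 9.27 and 9.51 in Jmjd1b-KO, and 10.06 and 10.20 in WT. Its second probe set (1422068_at) read 7.65 and 7.56 in double-KO, 7.19 and 8.12 in Jmjd1a-KO, 8.08 and 8.47 in Jmjd1b-KO, and 8.78 and 8.87 in WT. Pim2 read 8.68 and 8.13 in double-KO, 7.96 and 9.42 in Jmjd1a-KO, 9.89 and 10.08 in Jmjd1b-KO, and 11.01 and 11.03 in WT. WT was the highest group in all 3 probe sets, and both groups without Jmjd1a overlapped each other at the low end. In the second Pou3f1 probe set Jmjd1a-KO also overlapped with Jmjd1b-KO.

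In double-KO against WT, Pim2 fell by 2.61 ± 0.46 (adjusted p = 0.00654, limma) and the Pou3f1 probe sets fell by 1.72 ± 0.42 and 1.22 ± 0.30 (adjusted p = 0.019 and 0.0196). In Jmjd1a-KO against WT, Pim2 fell by 2.33 ± 0.46 (adjusted p = 0.0255) and the Pou3f1 probe sets fell by 1.92 ± 0.42 and 1.17 ± 0.30 (adjusted p = 0.0317 and 0.047). In Jmjd1b-KO against WT the differences were -1.03 ± 0.46 for Pim2 and -0.74 ± 0.42 and -0.55 ± 0.30 for Pou3f1, and none passed (adjusted p = 0.151, 0.235 and 0.223). Double-KO and Jmjd1a-KO were not told apart in either gene, with a Pim2 difference of -0.28 (95% interval -1.41 to 0.85) and Pou3f1 differences of 0.21 (-0.82 to 1.23) and -0.05 (-0.78 to 0.68). Pou3f1 did not pass in double-KO against Jmjd1b-KO (adjusted p = 0.0989 and 0.11, limma). Neither gene passed in Jmjd1a-KO against Jmjd1b-KO (adjusted p = 0.0867 for Pim2, 0.0845 and 0.174 for Pou3f1). Without Jmjd1a-KO replicate 1, the lower array, the Jmjd1a-KO difference from WT was -1.60 for Pim2 (adjusted p = 0.027) and -1.26 and -0.71 for Pou3f1 (adjusted p = 0.029 and 0.0678). With only these 2 groups in the fit, all 3 calls in Jmjd1a-KO were lost (adjusted p = 0.0937, 0.108 and 0.13). Pim2 did differ between double-KO and Jmjd1b-KO, where it fell by 1.58 ± 0.46 (adjusted p = 0.0324), and this call was lost without any 1 array of double-KO, Jmjd1b-KO or WT (adjusted p = 0.0598 to 0.136).

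**Figure D1:**
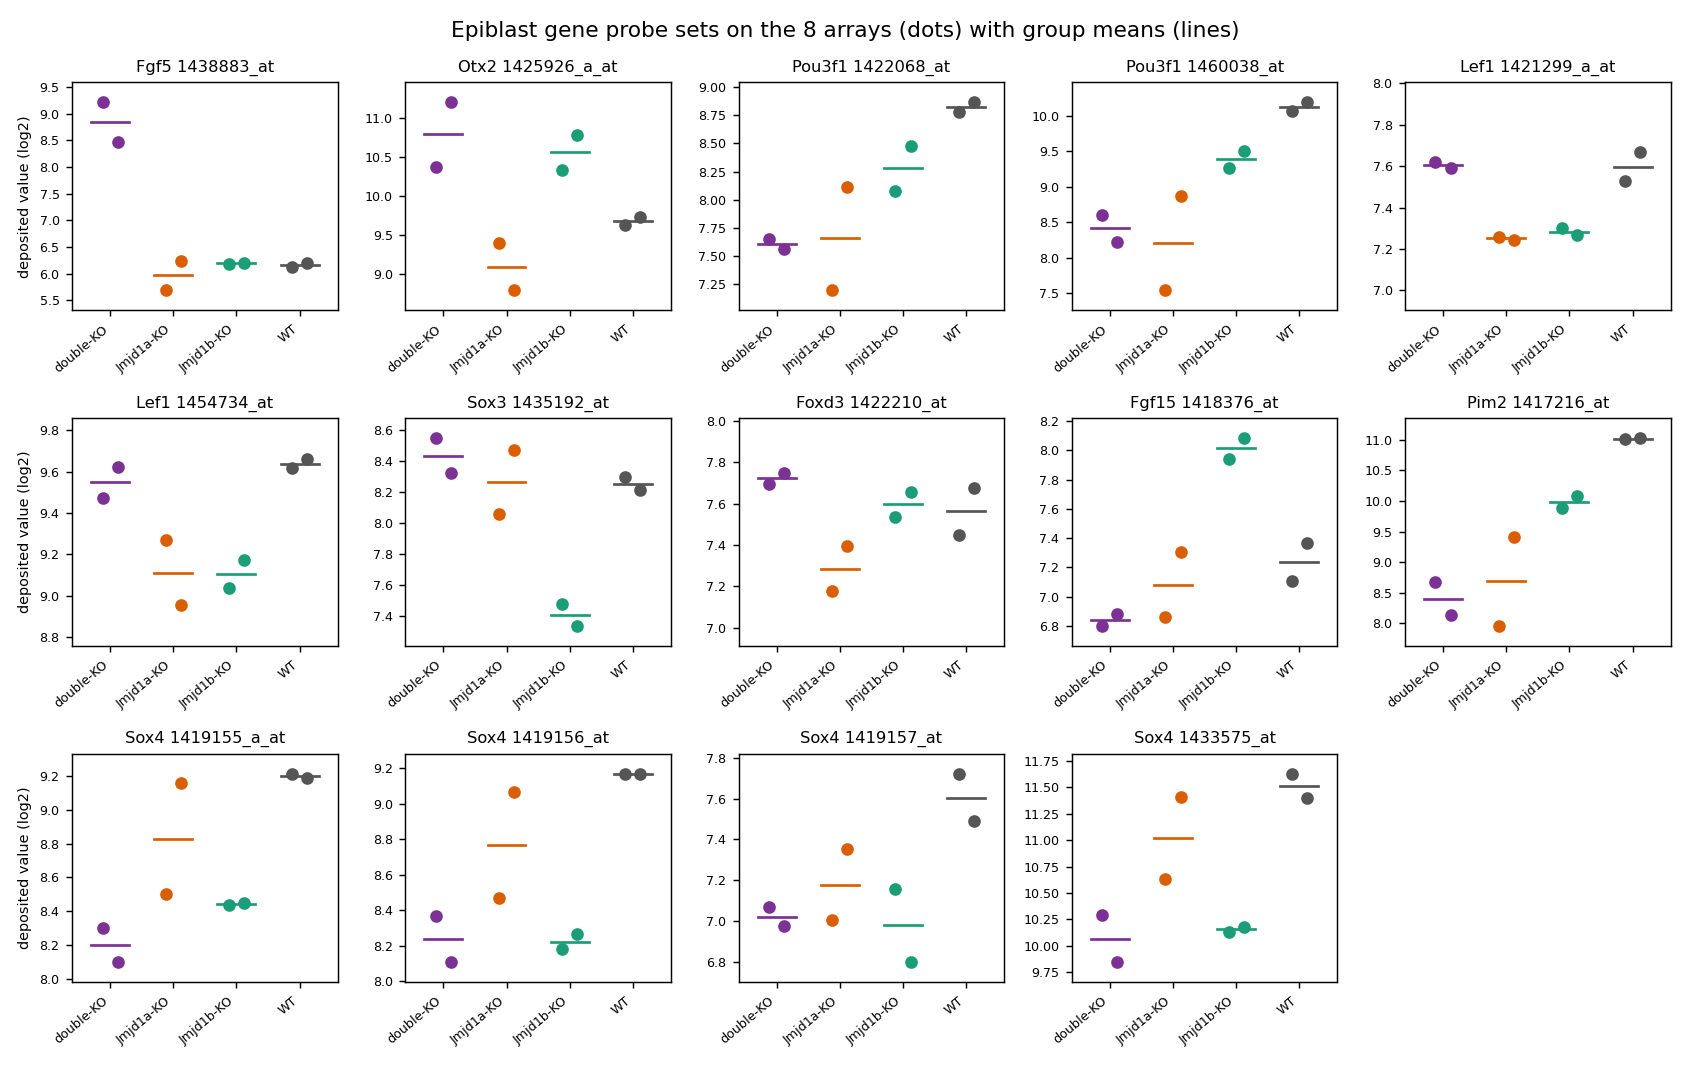
Deposited log2 value (y axis) of each measured epiblast gene probe set on the 8 arrays, by genotype (x axis), where dots are arrays and lines are means of 2 arrays. Fgf5 was at 9.22 and 8.47 in double-KO and at or below 6.25 elsewhere, and WT was highest in Pim2, Pou3f1 and Sox4.

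The SOX members, Sox3 and Sox4, are factors that bind DNA through an HMG box, and both fell in Jmjd1b-KO. Sox3, an X-linked SOXB1 factor of epiblast and neural progenitors, read 8.55 and 8.32 in double-KO, 8.06 and 8.47 in Jmjd1a-KO, 7.48 and 7.34 in Jmjd1b-KO, and 8.295 and 8.215 in WT. Jmjd1b-KO was the low group, the double-KO arrays lay just above those of WT, and Jmjd1a-KO overlapped with both. Sox3 fell by 0.85 ± 0.15 in Jmjd1b-KO against WT (adjusted p = 0.018, limma) and rose by 1.03 ± 0.15 in double-KO against Jmjd1b-KO (adjusted p = 0.00325). Double-KO and WT differed by 0.18 (95% interval -0.20 to 0.56), which did not pass. The second Sox3 probe set was flat at 6.90.

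Sox4, a SOXC factor found in many progenitor cells, had 4 measured probe sets. The brightest (1433575_at) read 10.29 and 9.84 in double-KO, 10.63 and 11.41 in Jmjd1a-KO, 10.13 and 10.18 in Jmjd1b-KO, and 11.63 and 11.40 in WT. Both groups without Jmjd1b were low, and one Jmjd1a-KO array lay among those of WT. This probe set fell by 1.45 ± 0.27 in double-KO (adjusted p = 0.00834, limma) and by 1.36 ± 0.27 in Jmjd1b-KO (adjusted p = 0.0231) against WT, and its -0.50 ± 0.27 in Jmjd1a-KO did not pass (adjusted p = 0.241). The other 3 measured probe sets also fell in double-KO, by 0.58 to 1.00, and in Jmjd1b-KO, by 0.63 to 0.95. Probe sets of 1 gene read the same RNA and are not separate evidence. The other 4 Sox4 probe sets were flat at values from 5.80 to 7.03.

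Lef1, the HMG-box partner of beta-catenin that carries Wnt signals to DNA, fell in each single loss, while double-KO lay near WT. Its brighter probe set (1454734_at) read 9.47 and 9.62 in double-KO, 9.27 and 8.95 in Jmjd1a-KO, 9.04 and 9.17 in Jmjd1b-KO, and 9.62 and 9.66 in WT. The other (1421299_a_at) read 7.62 and 7.59 in double-KO, 7.26 and 7.24 in Jmjd1a-KO, 7.30 and 7.27 in Jmjd1b-KO, and 7.53 and 7.67 in WT. In both probe sets the double-KO arrays overlapped with those of WT, and the single-KO arrays lay below both groups. Against WT the probe sets fell by 0.53 ± 0.12 and 0.34 ± 0.06 in Jmjd1a-KO (adjusted p = 0.0355 and 0.0214, limma) and by 0.53 ± 0.12 and 0.31 ± 0.06 in Jmjd1b-KO (adjusted p = 0.0293 and 0.0234). In double-KO the differences from WT were -0.09 (95% interval -0.38 to 0.20) and 0.01 (-0.15 to 0.16).

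Foxd3, a forkhead factor needed in the epiblast and the neural crest, varied least but for 1 Lef1 probe set, with a span of 0.57. It read 7.69 and 7.75 in double-KO, 7.18 and 7.39 in Jmjd1a-KO, 7.53 and 7.66 in Jmjd1b-KO, and 7.45 and 7.68 in WT. Jmjd1a-KO was the low group and double-KO the high one, and Jmjd1b-KO and WT overlapped. It rose by 0.44 ± 0.11 in double-KO against Jmjd1a-KO (adjusted p = 0.0333, limma). No difference from WT passed, the largest being -0.28 ± 0.11 in Jmjd1a-KO (adjusted p = 0.13). Without Jmjd1a-KO replicate 1 or double-KO replicate 1 or 2 the rise against Jmjd1a-KO lost its call, as it did without Jmjd1b-KO replicate 1 or 2, with values of 0.33 to 0.55 over all alternatives.

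**Figure D2:**
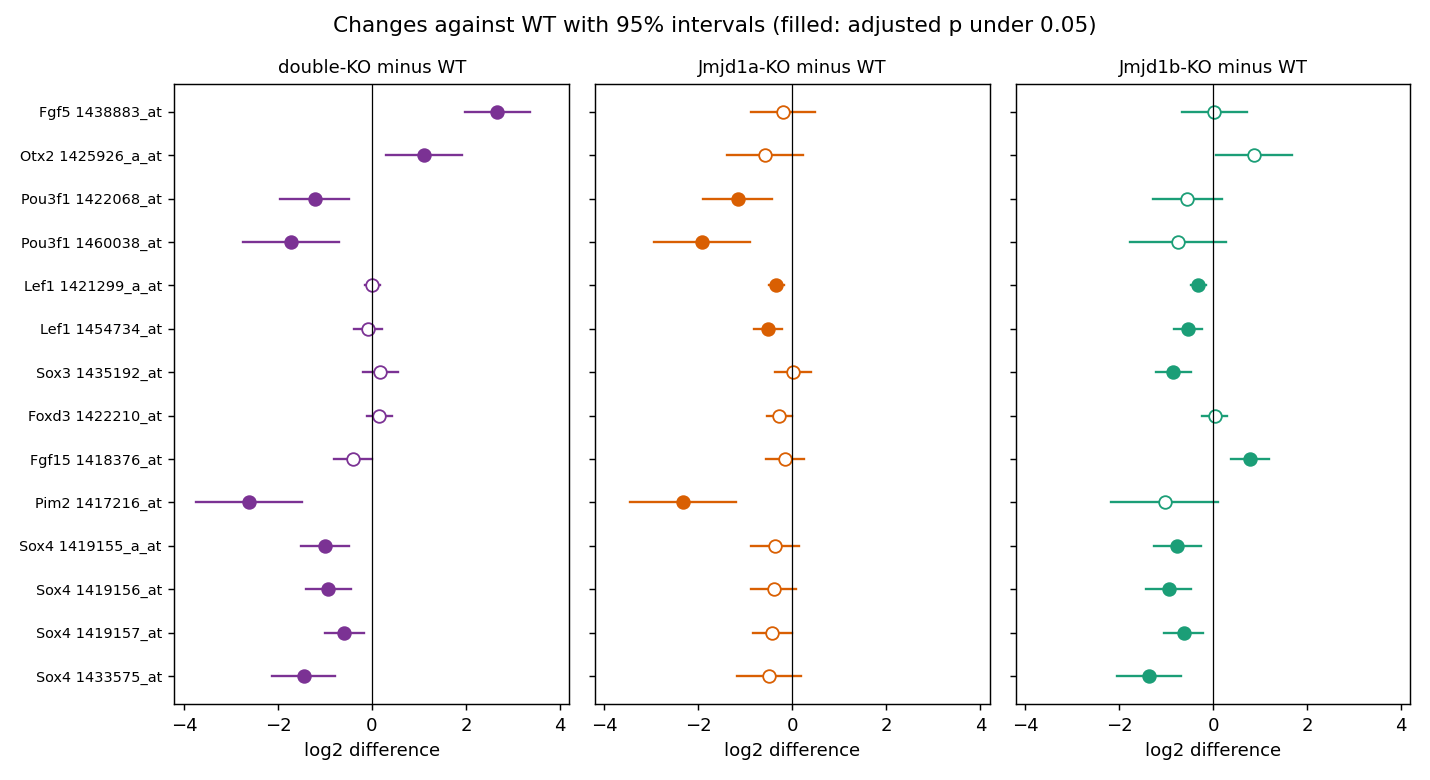
Log2 difference from WT (x axis) of each measured epiblast gene probe set (rows) in double-KO, Jmjd1a-KO and Jmjd1b-KO, with 95% intervals from the limma fit and filled points for an adjusted p under 0.05. Fgf5 at 2.67 and Otx2 at 1.11 are the filled points to the right in double-KO, and Fgf15 at 0.78 is the one in Jmjd1b-KO.

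Loss of both demethylases was set against WT first. Fgf5 and Otx2 rose, Pim2, Pou3f1 and Sox4 fell, and Lef1, Sox3, Foxd3 and Fgf15 did not pass. In probe sets, 2 of 14 rose and 7 fell, or 64.3% called, against 46.5% of all 11502 measured probe sets (26.9% higher and 19.6% lower), and the median difference was -0.49, against 0.02 over all. Of the 7 that fell, 4 are of Sox4 and 2 of Pou3f1. With 1 probe set per gene, 5 of 9 genes were called, 55.6% against 47.9% of all genes, a share near the background, and the median was -0.09. The genes moved in both directions. With WT replicate 1 or 2 or double-KO replicate 2 left out, most of the 9 calls were lost. Fgf5 and Pim2 kept theirs without each array in turn, although that of Pim2 was lost with all probe sets in the fit.

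Loss of Jmjd1a alone gave falls of Pim2, Pou3f1 and Lef1, and no member rose. Of 14 probe sets 5 passed, all lower, against 17.8% called (9.98% higher and 7.84% lower) over all measured probe sets, and the median difference was -0.41 against 0.00. With 1 probe set per gene, 3 of 9 genes were called, 33.3% against 17.9% of all genes, with a median of -0.50. The count of 5 was 3 without Jmjd1a-KO replicate 1, 8 without Jmjd1a-KO replicate 2, and 0 without WT replicate 1 or 2 or Jmjd1b-KO replicate 1 or 2, although 5 or 6 then had an unadjusted p under 0.05. With only these 2 groups in the limma fit it was 0, with 5 at an unadjusted p under 0.05.

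Loss of Jmjd1b alone gave falls of Sox4, Sox3 and Lef1 and a rise of Fgf15. Of 14 probe sets 1 rose and 7 fell, or 57.1% called, against 23.9% over all measured probe sets (12.3% higher and 11.5% lower), and 4 of the 7 are Sox4. The median difference was -0.59 against 0.00. With 1 probe set per gene, 4 of 9 genes were called, 44.4% against 23.7% of all genes, with a median of -0.53. The count of 8 was 0 in the limma fit without WT replicate 1 or 2 or Jmjd1b-KO replicate 1 or 2, with 7 to 9 at an unadjusted p under 0.05. It was 12 with only these 2 groups in the fit and 11 without either Jmjd1a-KO array.

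Deletion of Jmjd1b in cells that already lacked Jmjd1a was read from double-KO against Jmjd1a-KO. Fgf5, Otx2, Foxd3 and both Lef1 probe sets rose, and 1 Sox4 probe set fell by 0.95 ± 0.27 (adjusted p = 0.0483, limma), so that 6 of 14 passed against 28.9% over all (17% higher and 11.9% lower). The count of 6 was 1 with only these 2 groups in the fit, Fgf5. It was 2 and 3 without double-KO replicate 1 and 2, and 3 without either Jmjd1b-KO array. The Sox4 difference was -0.56 without Jmjd1a-KO replicate 2 (adjusted p = 0.0927), and of the 18 alternatives 12 lost its call.

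Added loss of Jmjd1a was read from double-KO against Jmjd1b-KO. Fgf5, Sox3 and Lef1 rose and Pim2 and Fgf15 fell, so that 6 of 14 probe sets passed, 42.9%, against 50.1% over all (28.3% higher and 21.8% lower), a share near the background. The count was 3 without Jmjd1b-KO replicate 2. The calls of Fgf5, Sox3 and Fgf15 held under all alternatives that included them. Jmjd1a-KO against Jmjd1b-KO had 3 of 14 called, 21.4%, against 27.8% over all (15.1% higher and 12.7% lower), a share near the background. Sox3 was higher by 0.86 ± 0.15 (adjusted p = 0.0121, limma), and Otx2 and Fgf15 were lower, Fgf15 by -0.93 ± 0.16 (adjusted p = 0.0116). That count was 0 without Jmjd1b-KO replicate 1 or 2, with 4 and 3 at an unadjusted p under 0.05, and 6 without Jmjd1a-KO replicate 1 or 2. The comparisons share arrays, so they are not independent of each other.

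The interaction term asked whether the double-KO difference from WT departs from the sum of the single-KO differences. For Fgf5 the double-KO difference was 2.67 where the single differences summed to -0.17, an interaction of 2.85 ± 0.39 (adjusted p = 0.00785, limma). Both the sum and the size of the interaction are uncertain, because Fgf5 values outside double-KO lay below the lower quartile of the arrays. For Lef1 the sums were -1.06 and -0.66 and the interactions 0.97 ± 0.17 and 0.67 ± 0.09 (adjusted p = 0.0137 and 0.00742). For Sox3 the sum was -0.84 and the interaction 1.02 ± 0.22 (adjusted p = 0.0233), and for Fgf15 the sum was 0.62 and the interaction -1.02 ± 0.23 (adjusted p = 0.0282). These 5 of 14 probe sets compare with 24.9% called over all measured probe sets (13.9% positive and 11.1% negative).

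For Pim2, Pou3f1, Sox4, Otx2 and Foxd3 the interaction did not pass. The intervals were wide but for Foxd3, whose interaction was 0.40 (95% interval 0.02 to 0.79, adjusted p = 0.108 in limma). The interaction of Pim2 was 0.75 (95% interval -0.85 to 2.35) and that of Otx2 was 0.82 (-0.32 to 1.97), so neither additive nor non-additive behaviour was shown. The count of 5 was 2 without WT replicate 1 or 2 or Jmjd1b-KO replicate 1, 3 without Jmjd1b-KO replicate 2 or double-KO replicate 1, and 10 without Jmjd1a-KO replicate 2.

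**Figure D3:**
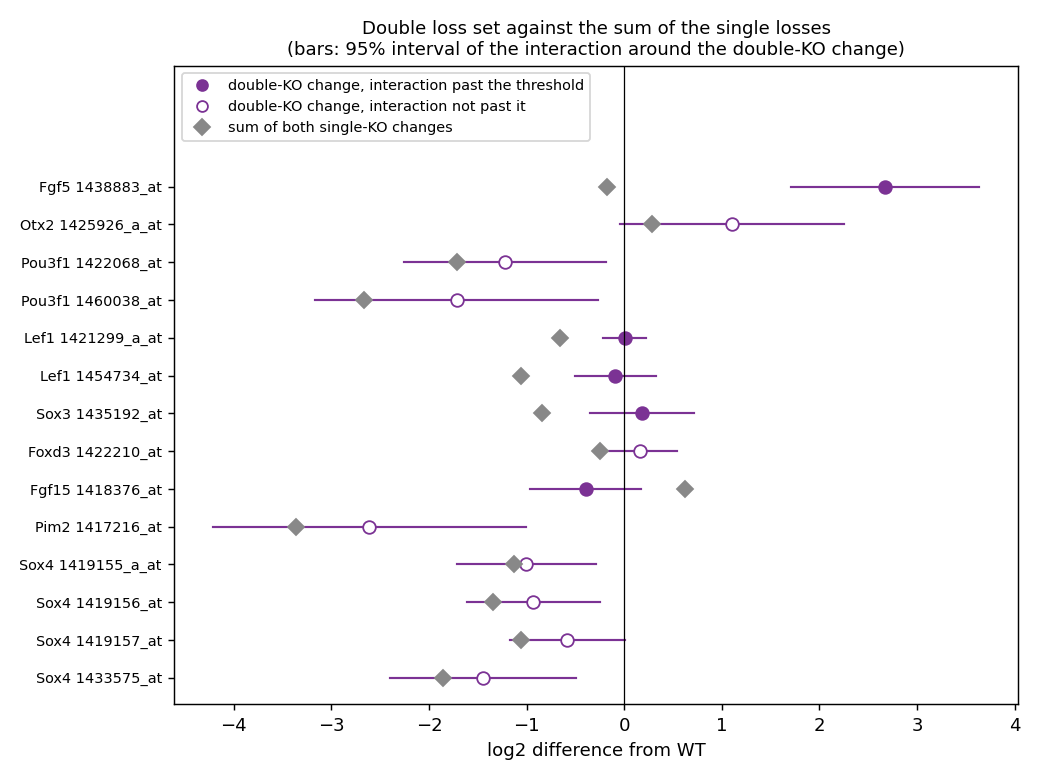
Log2 difference from WT (x axis) in double-KO (circles, with the 95% interval of the interaction drawn around them) and the sum of the single-KO differences (diamonds) for each measured epiblast gene probe set (rows). The bar excludes the diamond in Fgf5, Sox3, Fgf15 and both Lef1 rows, which passed, and just in Foxd3, whose interaction of 0.40 did not pass after adjustment (adjusted p = 0.108).

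Other genes of the formative and primed epiblast were taken from a list of 20, of which 18 had a probe set and 14 were measured. In double-KO against WT 1 rose and 5 fell, with the DNA methyltransferase Dnmt3a at -3.32, the Nodal antagonist Lefty2 at -1.21, the T-box factor Eomes at 1.16 and the ETS factor Etv5 at -1.09. Over all genes 47.9% were called in this comparison, so the share is near the background. In Jmjd1a-KO 1 rose and 3 fell, Dnmt3a (-1.13), Etv5 (-0.91), Eomes (0.83) and Dnmt3b (-0.69), against 17.9% of genes called. In Jmjd1b-KO 3 rose and 1 fell, N-cadherin gene Cdh2 (-2.88), Nodal (0.93), Eomes (0.65) and the epithelial factor Grhl2 (0.56), against 23.7% of genes called. The list medians were -0.29, -0.13 and 0.01 in double-KO, Jmjd1a-KO and Jmjd1b-KO, against 0.03, 0.01 and 0.02 over all 7181 measured genes. The listed epiblast genes therefore did not rise as a group beside Fgf5. Fgf8, Wnt8a, Cer1 and Cldn6 were flat. Etv5 and Etv4, both counted among those that fell in double-KO, also stand in the FGF list. Eomes also stands in that of mesoderm, Utf1 in that of stem cell markers, and Nanog in those of naive genes and stem cell markers.

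Of 13 measured genes of the FGF and ERK pathway, 4 rose and 2 fell in double-KO against WT, 46.2% against 47.9% of all genes, a share near the background. The feedback inhibitors of ERK signalling Dusp4 (1.83), Spry2 (1.31) and Spry1 (1.16) were among those that rose, while Dusp6 (-0.73), Spry4 (0.35) and Spred1 (0.22), also inhibitors, did not pass. Etv5 (-1.09) and Etv4 (-0.85), ETS factors induced by ERK signals, fell. Dusp6, Spry4, Spred1 and Etv4 were named after their values were seen. In Jmjd1a-KO, Spry1 (0.54) and the receptor Fgfr2 (0.42) rose and Etv5 (-0.91) fell. In Jmjd1b-KO the immediate early gene Egr1 (4.61) and the adaptor Grb2 (0.52) rose, and the inhibitor Spred1 (-1.10) and Fgfr2 (-0.57) fell. In the single losses 23.1% and 30.8% of the list were called, against 17.9% and 23.7% of all genes. The list medians were 0.22, 0.27 and -0.05 in double-KO, Jmjd1a-KO and Jmjd1b-KO.

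Of the Wnt and TCF/LEF list only 6 of 14 genes on the array were measured, and the target genes Axin2, Sp5, Nkd1, Cdx1 and Dkk1 were flat. In double-KO against WT the TCF factor Tcf7l2 (0.63) and beta-catenin, Ctnnb1 (0.36), rose, 33.3% against 47.9% of all genes. In Jmjd1a-KO the destruction complex gene Apc (0.34) rose, and in Jmjd1b-KO the kinase gene Gsk3b (-0.36) fell. Each is 16.7% of the measured list, against 17.9% and 23.7% of all genes. The interaction was called in 3 of the 6, Tcf7l2 (1.25), Tcf7l1 (0.74) and Ctnnb1 (0.46), all with the sign of Lef1, against 25.6% of genes called.

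Naive pluripotency genes were all measured, 14 of 14. In double-KO against WT 5 rose, among them Klf2 (1.97), Nanog (1.34), Zfp42 (1.33) and Dppa3 (0.76), and the other 9 did not pass, so that 35.7% were called against 47.9% of all genes. In Jmjd1a-KO, Zfp42 (1.01) and Dppa3 (0.87) rose. In Jmjd1b-KO, Klf2 (1.08) rose and Tbx3 (-0.92) and Tfcp2l1 (-0.91) fell. The shares called, 14.3% in Jmjd1a-KO and 21.4% in Jmjd1b-KO, were not above those of all genes, 17.9% and 23.7%. The list medians were 0.08, 0.33 and -0.18 in double-KO, Jmjd1a-KO and Jmjd1b-KO. Among the 8 stem cell markers Nanog, Sox2 (0.67) and Tdgf1 (0.65) rose and Lin28a (-0.96) fell in double-KO, Sox2 (0.58) rose in Jmjd1a-KO, and Sall4 (-0.44) fell in Jmjd1b-KO. Of these markers 50%, 12.5% and 12.5% were called in the same order, against 47.9%, 17.9% and 23.7% of all genes, so no share was far above the background.

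**Figure D4:**
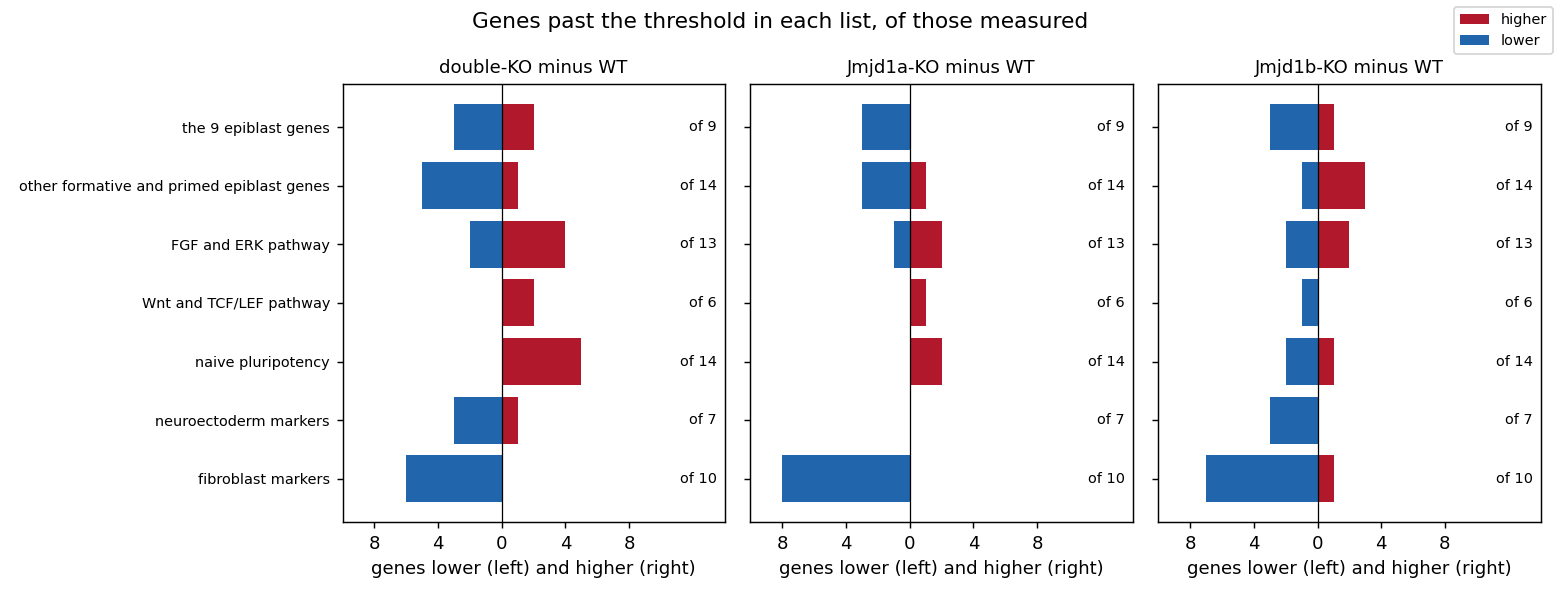
Number of measured genes that were lower (bars to the left) or higher (bars to the right) than in WT at an adjusted p under 0.05, for double-KO, Jmjd1a-KO and Jmjd1b-KO (panels), in the 9 epiblast genes and 6 related lists (rows), with the number measured at the right of each row. Of 10 fibroblast markers 6 were lower in double-KO, 8 in Jmjd1a-KO and 7 in Jmjd1b-KO.

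Markers of other cells moved with some members. Fibroblast markers, 10 of 15 measured, had a mean level of 7.57 to 7.74 in double-KO, 7.55 to 7.71 in Jmjd1a-KO, 6.62 to 6.77 in Jmjd1b-KO and 8.58 to 8.74 in WT. WT, highest here, was also the group with the highest Pim2, Pou3f1 and Sox4. Jmjd1b-KO, lowest here, averaged 9.99 in Pim2 and 9.39 in Pou3f1 (1460038_at). Both means lay above those of Jmjd1a-KO (8.69 and 8.21) and double-KO (8.41 and 8.41). Sox4 (1433575_at) averaged 10.15 in Jmjd1b-KO, 11.02 in Jmjd1a-KO and 10.07 in double-KO. The part of fibroblast RNA in those results was not tested. Of these markers 6 fell in double-KO, 8 in Jmjd1a-KO and 7 in Jmjd1b-KO, where Thy1, named after its value was seen, rose by 0.56. The shares called were 60% in double-KO, 80% in Jmjd1a-KO and 80% in Jmjd1b-KO, against 47.9%, 17.9% and 23.7% of all genes. Col1a2 (-2.96), Col1a1 (-2.40), Col5a2 (-1.77) and Pdgfrb (-1.09) had the largest falls in double-KO, and Acta2 (-2.74), Tagln (-1.75), Col1a2 (-1.71) and Col1a1 (-1.13) in Jmjd1a-KO. Acta2 (-4.75), Col1a2 (-3.74), Tagln (-3.32) and Col3a1 (-2.88) had the largest falls in Jmjd1b-KO, and Lum, Dcn, Twist2, Pdgfra and Prrx1 were flat.

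Neuroectoderm markers, 7 of 12 measured, had a mean level of 7.58 to 7.75 in double-KO, 7.79 to 8.61 in Jmjd1a-KO, 7.09 to 7.16 in Jmjd1b-KO and 8.53 to 8.61 in WT. Neural progenitors also express Sox3, Sox4 and Pou3f1. In Jmjd1b-KO, where Sox3 and Sox4 fell, the radial glia gene Fabp7 (-5.40), the early neural factor Sox1 (-3.19) and Map2 (-0.34) fell too. In double-KO, where Sox4 and Pou3f1 fell but Sox3 (0.18) did not pass, Fabp7 (-3.10), the tubulin Tubb3 (-2.30) and Nes (-0.20) fell and Map2 (0.38) rose. The part of neural-type cells in the Sox3 and Sox4 results was not tested. In Jmjd1a-KO, where Pou3f1 fell, 0 of 7 neuroectoderm markers passed in limma, with 2 at an unadjusted p under 0.05. The list had 57.1% called in double-KO and 42.9% in Jmjd1b-KO, against 47.9% and 23.7% of all genes.

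Endoderm markers, 5 of 10 measured, had a mean level of 7.30 to 7.74 in double-KO, 7.005 to 7.34 in Jmjd1a-KO, 6.23 to 6.24 in Jmjd1b-KO and 6.57 to 6.70 in WT. Cubn (1.48), Sox17 (1.07), the laminin gene Lama1 (1.01) and Gata6 (0.48) rose in double-KO, Lama1 (0.77) rose in Jmjd1a-KO, and Lama1 (-0.92) and Dab2 (-0.88) fell in Jmjd1b-KO. Trophoblast markers, 4 of 8 measured, had a mean level of 9.64 to 9.66 in double-KO, 8.11 to 8.28 in Jmjd1a-KO, 8.62 to 8.75 in Jmjd1b-KO and 7.56 to 7.75 in WT. Tfap2c (3.89) and the keratin genes Krt8 (2.40) and Krt18 (1.72) rose in double-KO, Tfap2c (2.48) rose in Jmjd1a-KO, and Tfap2c (1.40), Krt8 (1.19), Krt18 (0.97) and Krt7 (0.58) rose in Jmjd1b-KO. In double-KO, Jmjd1a-KO and Jmjd1b-KO, 80%, 20% and 40% of the measured endoderm markers and 75%, 25% and 100% of the trophoblast markers were called, against 47.9%, 17.9% and 23.7% of all genes. The defining genes Gata4, Foxa2, Cdx2 and Elf5 were flat. Of 9 mesoderm and primitive streak markers only Eomes was measured. Otx2 is also an endoderm gene, but in the single losses it was ordered otherwise than the endoderm markers. It averaged 10.56 in Jmjd1b-KO, where their level was lowest, and 9.09 in Jmjd1a-KO, where their level was above WT. The part of endoderm-like or trophoblast-like cells in the rises of Otx2 and Fgf5 in double-KO was not tested.

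The 9 genes did not form one pattern. Likeness was measured as the root mean square difference, over the 8 arrays, of log2 values centred on each probe set's mean. Lef1 and Foxd3 were the closest pair, at 0.25, and both varied little. Pou3f1 and Pim2 came next at 0.33, and Fgf5 and Pim2 were the farthest apart at 1.99. Among all measured probe sets with 1 gene symbol, that of Pou3f1 was the closest of any other gene to Pim2, followed by Dpp4 at 0.44. The closest genes to Fgf5 were Ptpn13 (0.21) and Zfp229 (0.27), which averaged 10.22 and 10.12 in double-KO, against 7.96 and 7.66 in WT. The closest to Otx2 were Syce3 (0.30) and Gpat2 (0.32), to Pou3f1 Selenow (0.25) and Wt1 (0.29), and to Sox4 Jakmip2 (0.16) and Hoxb2 (0.16). Sox3 was closest to Fbn2 (0.08) and Ubqln2 (0.09), Fgf15 to Sgf29 (0.10) and Gys1 (0.11), Lef1 to Tgfb2 (0.10) and Anp32a (0.12), and Foxd3 to Selenot (0.05) and Gpn1 (0.06). A gene with a small span has small distances by construction, and 8 arrays describe these samples only.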

How the data were processed

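RNA of 8 samples was measured on Affymetrix arrays. The deposited table holds 1 log2 value per probe set and array. Per the submitters' processing notes R 2.7.2 was used, and how the probes were corrected, normalized and summarized is not given in the sources. The log2 unit was read from the deposited values, of which 74.5% of probe sets were flat (a span under 0.01). The number of arrays limits the precision, and signal over background is unknown.

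Probe sets were named by the platform's gene table: 34958 had 1 symbol, 932 several and 9211 none. All 11502 measured probe sets, named or not, were fitted with limma 3.58.1 (R 4.3.3) as 4 group means (4 residual and 1.89 prior degrees of freedom), with Benjamini-Hochberg adjustment over them. Flat probe sets stayed out because with them the prior has 0.12 degrees of freedom, and the fit of all 45101 is an alternative. A filter on span keeps probe sets that vary, so counts over members are read only beside the background. Of the called probe sets 57.9% were higher in double-KO against WT (43.4% with centred arrays), 58.8% in double-KO against Jmjd1a-KO (46.0%) and 56% in Jmjd1a-KO against WT (45.1%).

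In each list a gene was represented by its measured probe set with the highest mean, and up to 4 called genes per list and comparison with the largest changes were named. All measured probe sets of the 9 genes and the 2 most alike genes of each were named. The members, lists and tests were chosen with earlier results of these data known. The scripts were tested on simulated data. The plots use Python 3.11.15 and matplotlib 3.10.9.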

Additional observations from a re-analysis of the deposited data

Results flagged for a closer look

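The effect of Jmjd1b loss differed between cells with and without Jmjd1a, by the interaction term of the limma fit, for 4 of the 9 epiblast genes. This is 44.4%, against 25.6% of all genes called. The interaction calls of Sox3 and Fgf15 were lost under 7 and 8 of the alternatives given below. That of Lef1 (1454734_at) was lost under 5, and that of Fgf5 under 1, with all probe sets in the fit. For Fgf5 the effect was larger by 2.85 in cells without Jmjd1a. Its size is uncertain, because Fgf5 values outside double-KO lay below the lower quartile of the arrays. For Lef1 the interaction was 0.97 (1454734_at) and 0.67 (1421299_a_at), with Lef1 lower in Jmjd1b-KO than in WT and higher in double-KO than in Jmjd1a-KO. For Sox3 the interaction was 1.02: Jmjd1b loss went with -0.85 in cells with Jmjd1a and with 0.17, which did not pass, in cells without it. For Fgf15 the interaction was -1.02, with 0.78 in cells with Jmjd1a and -0.24, which did not pass, in cells without it. The 2 backgrounds are also different lines, and in the double-KO the deletion was induced, so these differences and the genotype cannot be told apart.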

How the results depend on the processing

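The 42 called changes of single probe sets were recomputed under 18 alternatives, 747 values in all, and every value kept its direction. Of these values 517 kept the call and 230 lost it. The 6 changes that kept it throughout were those of Fgf5 in double-KO against each other group, of Sox3 and Fgf15 in double-KO against Jmjd1b-KO, and of the Lef1 interaction (1421299_a_at). Fgf5 was not in the fit of probe sets with a mean of at least 7, and only the groups compared could not be fitted for the interaction. Counts of the 14 probe sets called are given next in the order double-KO against WT, against Jmjd1a-KO and against Jmjd1b-KO, Jmjd1a-KO against WT and against Jmjd1b-KO, Jmjd1b-KO against WT, and the interaction, and were 9, 6, 6, 5, 3, 8 and 5 as reported. With all probe sets, flat ones included, they were 1, 1, 4, 0, 0, 0 and 1, with 5, 3 and 8 at an unadjusted p under 0.05 where limma called 0. Over all features the 7 comparisons called 5350, 3329, 5762, 2050, 3196, 2744 and 2868, and 3228, 1291, 3821, 775, 1360, 819 and 1247 with all probe sets. With only the groups compared 556, 394 and 5071 were called in double-KO against Jmjd1a-KO, Jmjd1a-KO against WT and Jmjd1b-KO against WT, and with array weights 1623, 1280 and 5526. With only these groups Jmjd1a-KO against Jmjd1b-KO had 2118. With 1 array left out the 7 had 3232 to 6083, 1779 to 3448, 3363 to 6516, 186 to 3674, 913 to 3501, 104 to 3805 and 915 to 3976, and at an adjusted p under 0.01 they had 2988, 1137, 3427, 341, 1207, 471 and 763. At an adjusted p under 0.01 the 14 probe sets had 3, 1, 4, 0, 0, 0 and 2 calls in limma. At an unadjusted p under 0.05, a looser threshold, the counts were 9, 8, 6, 7, 8, 9 and 6. For double-KO against Jmjd1a-KO and Jmjd1a-KO against WT array weights gave 2 and 2, and a fit of only the groups compared gave 1 and 0. With 1 array left out the counts ranged from 2 to 10, 2 to 8, 3 to 9, 0 to 8, 0 to 6, 0 to 11 and 2 to 10. A left-out array removes 1 of 4 residual degrees of freedom and leaves a group with a lone array that is assumed to vary like the others. Quantile normalization, centred arrays, a span of at least 0.1, a mean of at least 7 and a robust prior with trend gave counts within 1.5 times of those reported. The replicate block gave 5 in Jmjd1b-KO against WT and no count beyond 1.5 times elsewhere. The replicate numbers were not taken as pairs, since the differences between replicates 1 and 2 correlated across groups at -0.04 to 0.24 only.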
